A study of Homo sapiens with 6 samples.

Results

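The 10 genes described here encode the enzymes that build purine and pyrimidine nucleotides from small precursors, the de novo route. They were chosen by symbol from a list of pathway members, namely PPAT, GART, PFAS, PAICS, ADSL and ATIC for purines and CAD, DHODH, UMPS and CTPS1 for pyrimidines. The choice was made with earlier results of these data known, so counts of called members are descriptions. All 10 were found among the 28278 gene symbols of the deposited tables, and all 10 passed the filter on low counts, which kept 15131 genes. RNA came from RKO cells, an established line from a poorly differentiated human colon carcinoma. The shTRIM21 group held 3 libraries of cells with a lentiviral short hairpin RNA against TRIM21, a ubiquitin ligase and cytosolic antibody receptor, and the shControl group held 3 libraries of cells with a scrambled hairpin and otherwise wild-type genotype. Cells of both groups were selected with 5 µg/ml puromycin, which began 36 h after infection and lasted 2 to 3 weeks, and both sets of libraries were made from total RNA depleted of ribosomal RNA. The labels call the libraries biological replicates and do not say whether they came from separate infections or how many hairpins were used, so the p-values measure the spread between these libraries, which may be technical. The source field of the labels names mouse tissue, whereas the organism, the cell line and the symbols are human.

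Purine synthesis assembles the ring stepwise on phosphoribosyl pyrophosphate (PRPP), drawing nitrogen from glutamine, glycine and aspartate and carbon from glycine, folate and carbon dioxide. It ends at inosine monophosphate, from which AMP and GMP are made. Pyrimidine synthesis builds the ring first, from glutamine, bicarbonate and aspartate, then joins it to PRPP to give UMP, which is phosphorylated and aminated to CTP. Dividing tumour cells rely on both routes for DNA and RNA, and the transcription factors MYC and ATF4 are known regulators of genes in them.

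The promoters of the PPAT and PAICS genes are shown because these neighbours are transcribed away from each other on chromosome 4 and were measured side by side, and that of PFAS because it was the member that changed most. In RefSeq, the PPAT start on the minus strand and the nearest PAICS start on the plus strand are separated by 136 bases. Letters are in lower case, with any match to the motifs searched in capitals, and the stretches hold no annotated exon of GENCODE release 29. The first line is the plus strand of chr4:56435616-56435740 between the PPAT and PAICS starts, and the second the plus strand of chr17:8249039-8249285, before the PFAS start of the RefSeq promoter table, which lies inside the annotated span of the gene (both GRCh38.p14, RefSeq).
PPAT-PAICS: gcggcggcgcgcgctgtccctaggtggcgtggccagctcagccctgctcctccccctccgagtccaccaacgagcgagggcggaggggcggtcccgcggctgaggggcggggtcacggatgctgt
PFAS: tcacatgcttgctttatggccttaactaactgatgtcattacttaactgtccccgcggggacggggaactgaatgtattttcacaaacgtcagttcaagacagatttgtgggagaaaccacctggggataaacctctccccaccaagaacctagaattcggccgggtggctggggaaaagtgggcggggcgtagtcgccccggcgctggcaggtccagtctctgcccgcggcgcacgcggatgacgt
Neither stretch held any of the 3 motifs, which says only that these letters are not in these windows.

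The 3 motifs, searched on both strands, were the E-box CACGTG, which MYC and USF proteins bind, the core TGATGNAA of the element that ATF4 binds with C/EBP partners, and the CCAAT box of NF-Y. RefSeq promoter windows, 250 bases before to 50 after a start, were given for 9 members in 14 windows. ADSL had no entry. The E-box was found in windows of 4 of the 9 members, PPAT, PAICS, ATIC and DHODH, that is in 4 of 14 windows, against 7.26% of all 35116 windows in the table. PPAT and PAICS share 1 E-box, at chr4:56435792-56435797, which is 182 bases before the PPAT start and 41 bases into the PAICS transcript. ATIC held 2, of which the one 46 bases before its start is shown. The sites are printed with 10 bases on each side, on the strand of the named gene, with the E-box in capitals.
PPAT, chr4:56435782-56435807, minus strand: cggagatttcCACGTGcagcaaatac
ATIC, chr2:215312003-215312028, plus strand: gccggcgggcCACGTGataagcccgg
DHODH, chr16:72008575-72008600, plus strand: cgctactgcgCACGTGcacccaacca
The ATF4 core was found in 0 of the 14 windows, against 3.62% of all windows. CCAAT was found in 5 of 14, belonging to GART, CAD and DHODH, against 34.6% of all windows. These matches describe the sequence alone, and some windows of GART overlap each other. The PPAT window overlaps a PAICS window as well, so their shared E-box was counted in both.

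The libraries held 33499827 to 44466137 counts in all, and 27808151 to 29100459 after ribosomal RNA rows were set aside, which took 16.99% to 23.5% in shTRIM21 and 14.7% to 36.9% in shControl. TRIM21 itself had 299, 271 and 297 counts in shTRIM21 and 459, 421 and 343 in shControl, a log2 fold change of -0.54 (SE 0.12; edgeR adjusted p = 0.00424) that was not called when libraries were scaled by their totals only (-0.34; edgeR adjusted p = 0.197). The epithelial keratin and adhesion markers KRT8, KRT18, KRT19, EPCAM and CDH1 together gave 174268 to 186378 counts per shTRIM21 library and 224068 to 242658 per shControl library. The intestinal factor CDX2 was present at 776 to 934 counts over the libraries, while LGALS4 was listed at 0. The 5 leukocyte markers summed to 9 to 16 counts in shTRIM21 and 5 to 24 in shControl, and the leukocyte marker CD3E, the endothelial marker CDH5 and the fibroblast markers DCN and LUM were listed at 0. The 4 endothelial markers summed to 13 to 29 counts in shTRIM21 and 16 to 26 in shControl. COL1A1 made up nearly all of the fibroblast sum of 384 to 405 counts in shTRIM21 and 223 to 329 in shControl. KRT8, KRT18 and KRT19 were lower in shTRIM21 (log2 fold changes -0.44, -0.46 and -0.38) and CDH1 was higher (0.57), each with an edgeR adjusted p under 0.05; the part of these shifts in the results below was not tested. Levels are given as CPM, counts divided by the library size after scaling with TMM factors.

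PFAS, CTPS1, GART and CAD fell in shTRIM21, by 34.6%, 17.2%, 17.02% and 11.5%, and no enzyme gene rose. That is 4 of 10 lower and 0 of 10 higher (quasi-likelihood F test of edgeR, called at 0.05 after Benjamini-Hochberg adjustment over all genes tested), where 11.0% of all tested genes were lower, 9.77% were higher and 20.8% were called in either direction. At an unadjusted p under 0.05 the count of higher enzyme genes was also 0, as it was with DESeq2 and limma-voom. The split of all calls depended on the scaling: 1667 lower and 1479 higher with TMM factors, 1161 lower and 1899 higher with upper-quartile factors, and 138 lower and 1831 higher when libraries were scaled by their totals only. For the same 4 genes every shTRIM21 library lay below every shControl library, which was so for 19.0% of all tested genes. The median log2 fold change of the 10 genes was -0.06, against 0.01 for all tested genes. This median was -0.10 without shControl replicate 1, -0.03 without shTRIM21 replicate 3 and 0.15 when libraries were scaled by their totals only, which put the median of all genes at 0.22. Under that last scaling none of the 4 calls was made (edgeR adjusted p = 0.824 for GART, 0.0817 for PFAS, 0.901 for CAD and 0.826 for CTPS1), and CAD turned to 0.037. Those totals include the ribosomal RNA rows. With these rows left out and TMM factors kept, all 4 genes were called lower. Their log2 fold changes there were -0.62 (PFAS), -0.28 (GART), -0.28 (CTPS1) and -0.18 (CAD). In the main analysis the 6 purine genes had 2 called and the 4 pyrimidine genes 2 called, with medians of -0.06 and -0.06. Less RNA per cell and fewer cells expressing a gene cannot be told apart in such bulk libraries.

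**Figure D1:**
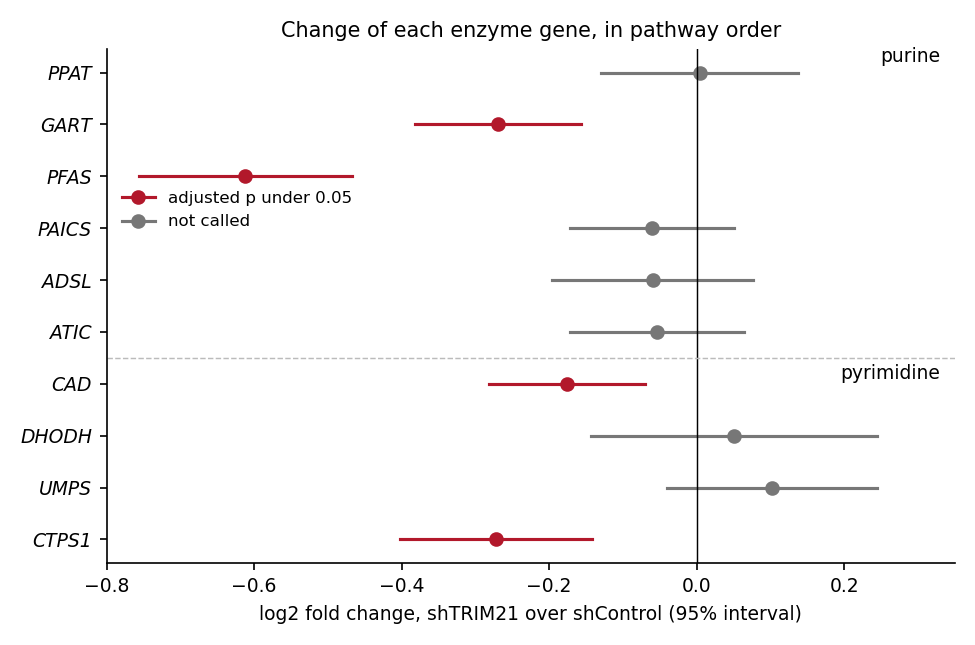
Log2 fold change of each enzyme gene, shTRIM21 over shControl, with its 95% interval, in pathway order and with the purine genes above the dashed line. Genes with an edgeR adjusted p under 0.05 are in red; PFAS lies farthest from 0 at -0.61, and the intervals of the 6 grey genes all include 0.

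The purine route begins with PPAT, which transfers the amide nitrogen of glutamine to PRPP in the committed step. PPAT stood at 85.8, 77.3 and 75.5 CPM in shTRIM21 and at 75.3, 81.2 and 81.5 CPM in shControl. The groups overlapped and their means were nearly equal, 79.6 ± 5.50 and 79.3 ± 3.48 CPM (SD, n = 3 each). PPAT had a log2 fold change of 0.00 with an SE of 0.06 (edgeR adjusted p = 0.975), and its 95% interval ran from -8.55% to 9.95%.

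GART, a fused protein that carries several of the next reactions including the folate-dependent formylation of glycinamide ribonucleotide, had 131, 136 and 133 CPM in shTRIM21 and 154, 169 and 158 CPM in shControl. All shTRIM21 libraries were below all shControl libraries, and the shTRIM21 values were tightly grouped. GART fell by 17.02%, a log2 fold change of -0.27 (SE 0.05, 95% interval -0.38 to -0.16; edgeR adjusted p = 0.00227).

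PFAS converts formylglycinamide ribonucleotide to its amidine with a further nitrogen from glutamine. Its counts were 1449, 1556 and 1494 in shTRIM21 and 2087, 2177 and 2376 in shControl, or 38.6, 39.7 and 39.5 CPM against 55.3, 59.2 and 65.6 CPM. The groups were far apart, the lowest shControl library standing well above the highest shTRIM21 library, and the spread within shTRIM21 was small (39.3 ± 0.580 CPM, against 60.03 ± 5.19 CPM in shControl, SD, n = 3 each). PFAS fell by 34.6%, a log2 fold change of -0.61 (SE 0.07, 95% interval -0.76 to -0.47; edgeR adjusted p = 1.81e-05). It ranked 102 by p-value among the genes called lower, and 2.25% of all tested genes had a lower fold change.

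PAICS, whose product carries out the carboxylation and the aspartate addition that follow, was the most abundant member, with 415, 397 and 387 CPM in shTRIM21 and 402, 422 and 426 CPM in shControl. These groups overlapped, with PAICS at -0.06 on the log2 scale, SE 0.05 (95% interval -0.17 to 0.05; edgeR adjusted p = 0.451). ADSL, adenylosuccinate lyase, which acts late in the purine route and again on the way to AMP, had 83.4, 83.0 and 76.4 CPM in shTRIM21 and 77.3, 87.0 and 88.8 CPM in shControl. ATIC, which adds the last folate carbon and closes the ring to inosine monophosphate, had 77.2, 73.5 and 71.1 CPM in shTRIM21 and 75.6, 78.2 and 76.4 CPM in shControl. Both overlapped between groups, with log2 fold changes of -0.06 (SE 0.06; edgeR adjusted p = 0.557) for ADSL and -0.05 (SE 0.06; edgeR adjusted p = 0.54) for ATIC.

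In the pyrimidine route, CAD carries the opening reactions, in which glutamine, bicarbonate and aspartate become dihydroorotate. CAD had 147, 150.2 and 156 CPM in shTRIM21 and 170.4, 169 and 172 CPM in shControl. The groups did not overlap, and CAD fell by 11.5%, the smallest of the called changes (log2 fold change -0.18, SE 0.05, 95% interval -0.28 to -0.07; edgeR adjusted p = 0.021). Its call was lost under 6 of 17 other processing choices. Among these were leaving out shTRIM21 replicate 1 (edgeR adjusted p = 0.0685), shTRIM21 replicate 2 (edgeR adjusted p = 0.0879) or shControl replicate 3 (edgeR adjusted p = 0.0649), and over all 17 the adjusted p ran from 0.00532 to 0.901.

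DHODH, the mitochondrial enzyme that oxidises dihydroorotate and the least abundant member, had 14.4, 16.3 and 15.2 CPM in shTRIM21 and 14.0, 14.3 and 16.0 CPM in shControl. UMPS, which joins orotate to PRPP and decarboxylates the product to UMP, had 53.2, 54.4 and 50.0 CPM in shTRIM21 and 45.0, 50.0 and 51.8 CPM in shControl. Neither was called, and their groups overlapped. The log2 fold changes were 0.05 for DHODH (SE 0.09, 95% interval -0.14 to 0.24; edgeR adjusted p = 0.743) and 0.10 for UMPS (SE 0.07, 95% interval -0.04 to 0.24; edgeR adjusted p = 0.303).

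CTPS1, which aminates UTP to CTP with glutamine, had 48.6, 45.9 and 47.2 CPM in shTRIM21 and 53.7, 58.9 and 58.6 CPM in shControl. No shTRIM21 library reached the lowest shControl library. CTPS1 fell by 17.2%, nearly the same as GART (log2 fold change -0.27, SE 0.06, 95% interval -0.40 to -0.14; edgeR adjusted p = 0.0054).

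**Figure D2:**
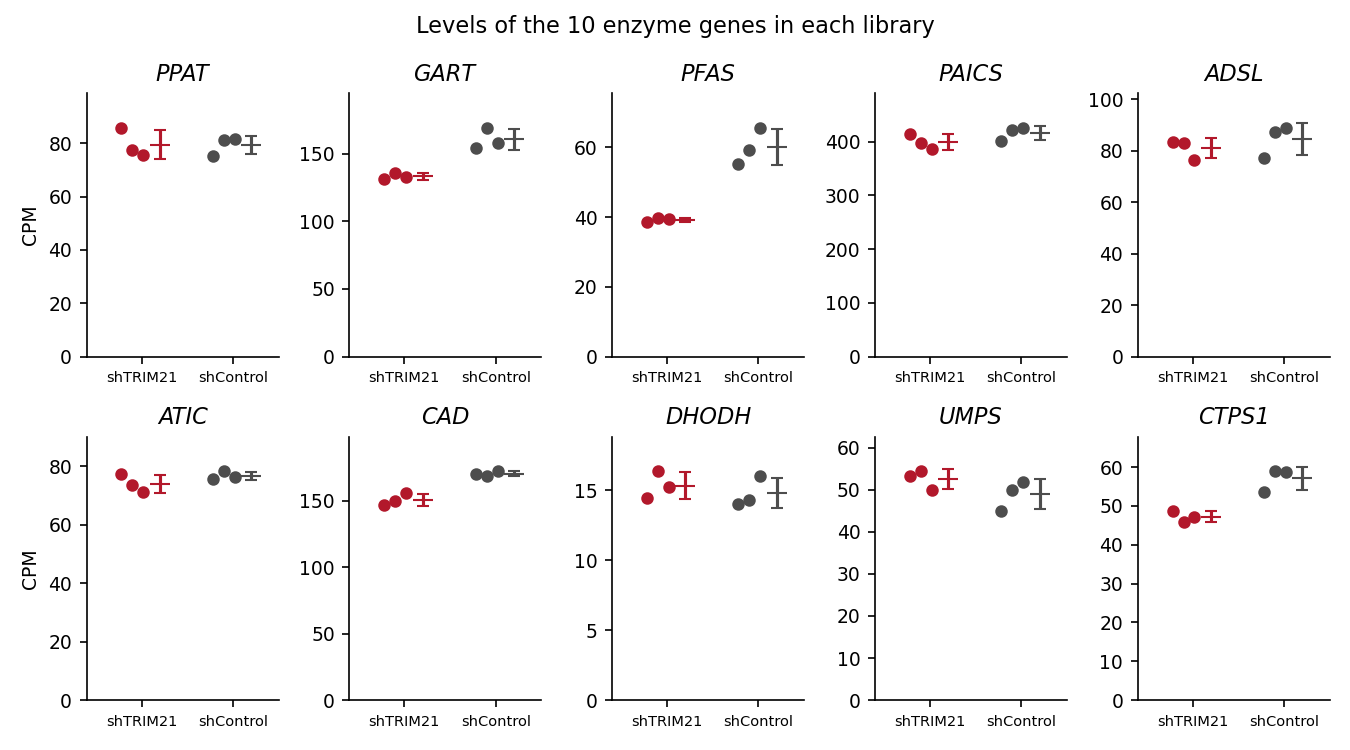
Level of each enzyme gene in CPM (vertical axis, from 0) in the 3 shTRIM21 libraries (red, left) and the 3 shControl libraries (grey, right), with the group mean and SD beside the points. The red points lie below all grey points for GART, PFAS, CAD and CTPS1, and the groups overlap for the other 6 genes.

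Across the 6 uncalled genes the 95% intervals together spanned -0.20 to 0.24 on the log2 scale, from 12.7% lower (ADSL) to 18.5% higher (DHODH). A change of the size seen for PFAS lies outside the interval of every one of them. The smaller fall seen for CAD, -0.18, lies inside the interval of ADSL alone. The 10 genes summed to 1094, 1073 and 1049.98 CPM in shTRIM21 and 1123, 1189 and 1195 CPM in shControl, so with TMM factors the sum was lower in each shTRIM21 library. The order depended on the scaling. Per 1000000 counts of the library total the sums were 1181, 1104 and 1186 in shTRIM21 and 1008, 1291 and 973 in shControl, and with ribosomal RNA rows left out 1464, 1444 and 1429 in shTRIM21 and 1461, 1514 and 1543 in shControl, and the groups overlapped on both scales. PAICS alone supplied 14633 to 15572 counts per shTRIM21 library, where the 10 genes held 39742 to 42010 together, and 15168 to 15512 per shControl library, where they held 42380 to 43686.

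Grouped by the use of glutamine as a nitrogen donor, a grouping made after the values were seen, 3 of the 4 glutamine-using members were lower (PFAS, CAD and CTPS1, with PPAT uncalled), and 1 of the other 6 was (GART), where 11.0% of all tested genes were lower. CAD, 1 of the 3, lost its call under 6 of 17 processing choices, including the omission of any 1 of 3 single libraries. Their median log2 fold changes were -0.22 and -0.06. GMPS, a further glutamine-using enzyme that makes GMP, is no member and was uncalled at 0.06 (SE 0.05, edgeR adjusted p = 0.504). CTPS2, the paralogue of CTPS1, is no member either and was uncalled at -0.08 (SE 0.09, edgeR adjusted p = 0.57).

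Levels between genes were compared as CPM per kilobase of merged protein-coding exons (GENCODE release 29). In shTRIM21 the order was PAICS at 59.6 ± 2.15, GART at 30.4 ± 0.525, ATIC at 29.01 ± 1.21, PPAT at 21.6 ± 1.49, CAD at 20.8 ± 0.631, ADSL at 17.2 ± 0.839, CTPS1 at 8.15 ± 0.229, UMPS at 7.74 ± 0.336, PFAS at 7.31 ± 0.108 and DHODH at 3.17 ± 0.200 CPM per kilobase (SD, n = 3). In shControl it was PAICS at 62.1 ± 1.91, GART at 36.7 ± 1.75, ATIC at 30.1 ± 0.526, CAD at 23.5 ± 0.257, PPAT at 21.5 ± 0.946, ADSL at 17.9 ± 1.32, PFAS at 11.2 ± 0.966, CTPS1 at 9.85 ± 0.505, UMPS at 7.21 ± 0.520 and DHODH at 3.06 ± 0.224 CPM per kilobase (SD, n = 3). PFAS stood in place 9 in shTRIM21 and in place 7 in shControl, below CTPS1 in shTRIM21 and above it in shControl. The ranges of neighbours in the order did not overlap in shControl. In shTRIM21 they overlapped for GART with ATIC, PPAT with CAD, CTPS1 with UMPS and UMPS with PFAS.

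Ratios of reads between members within a library do not depend on how libraries are scaled. Taking PAICS, the deepest counted member, as the denominator, PFAS reads came to 9.31%, 10.02% and 10.2% of PAICS reads in shTRIM21 and 13.8%, 14.03% and 15.4% in shControl. CTPS1 came to 11.8% ± 0.338 and 13.7% ± 0.304 and GART to 33.4% ± 1.55 and 38.5% ± 1.48 of PAICS reads in shTRIM21 and shControl (SD, n = 3 each). The groups did not overlap for any of these 3. Each reached an exact two-sided permutation p of 0.1, the smallest that 3 against 3 allows, and 0.18 after Benjamini-Hochberg adjustment over the 9 ratios. The share of all genes whose ratio to PAICS separates the groups was not computed. As CPM, 2869 of 15131 tested genes lay wholly lower and 2832 wholly higher in shTRIM21. The CAD ratio overlapped between groups, at 37.8% ± 2.47 in shTRIM21 and 40.9% ± 1.29 in shControl (exact permutation p = 0.2, adjusted 0.3). UMPS lay the other way, at 13.2% ± 0.483 in shTRIM21 and 11.7% ± 0.496 in shControl (exact permutation p = 0.1, adjusted 0.18). ADSL and ATIC kept nearly equal ratios, 20.3% ± 0.607 and 20.2% ± 0.881 for ADSL and 18.5% ± 0.108 and 18.4% ± 0.445 for ATIC in shTRIM21 and shControl (exact permutation p = 0.9 for both).

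For the neighbours PPAT and PAICS, PPAT reads were 20.7%, 19.5% and 19.5% of PAICS reads in shTRIM21 and 18.7%, 19.2% and 19.1% in shControl. The shTRIM21 ratios all lay above the shControl ratios by a small amount, 0.06 on the log2 scale (exact permutation p = 0.1, adjusted 0.18). The PAICS gene has a further RefSeq start inside the PPAT locus, so that 25109 bases of the annotated genes overlap on opposite strands, and whether strand was used in counting is not known from the sources used here.

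**Figure D3:**
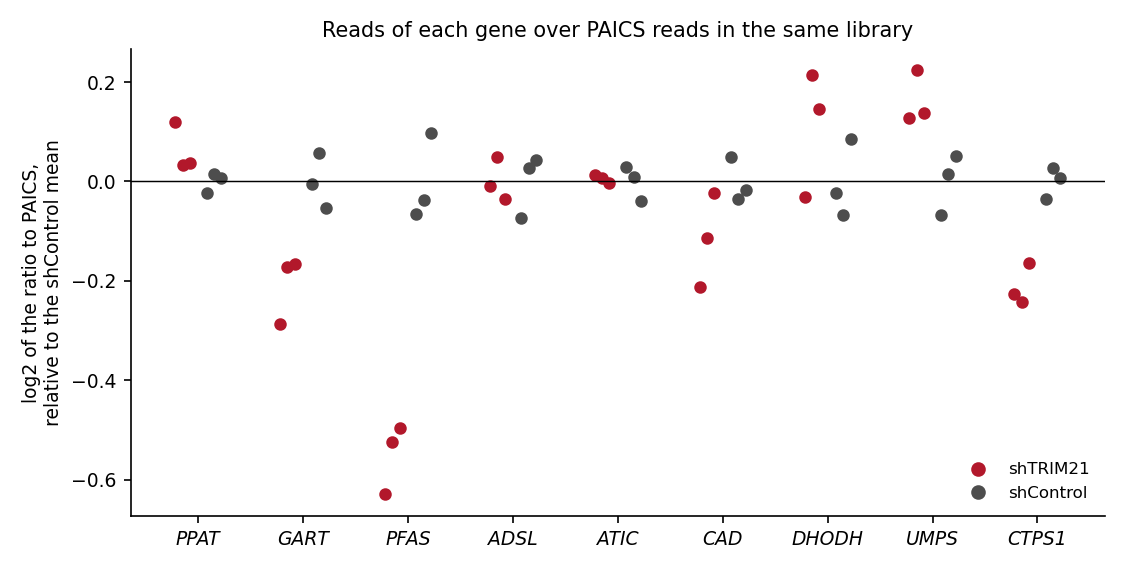
Reads of each member over PAICS reads in the same library, as log2 of the ratio relative to the shControl mean (vertical axis), in shTRIM21 (red, left of each pair) and shControl (grey). The PFAS, GART and CTPS1 points are below all their shControl points, those of PPAT and UMPS are above, and ADSL, ATIC, CAD and DHODH overlap.

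Positions bear on what the counts can hold (RefSeq, GRCh38.p14). PFAS lies at chromosome 17, 8247608 to 8270486, and shares 449 bases at its 5' end with CTC1, which was uncalled at a log2 fold change of 0.08 (SE 0.06; edgeR adjusted p = 0.414). CAD (chromosome 2, 27217369 to 27243943), CTPS1 (chromosome 1, 40979696 to 41012565) and DHODH (chromosome 16, 72008744 to 72027659) overlap 0 other annotated genes. GART (chromosome 21, 33503931 to 33542893) and UMPS (chromosome 3, 124730452 to 124749273) overlap only pseudogenes and a microRNA. ATIC (chromosome 2, 215312059 to 215368592) shares 7728 bases with FN1 on the other strand, and FN1 was higher in shTRIM21 at 8.09 CPM against 5.92 CPM in shControl. ADSL (chromosome 22, 40346500 to 40387527) shares 16934 bases with SGSM3, uncalled at -0.12 (SE 0.08; edgeR adjusted p = 0.311). RefSeq lists 2 pseudogenes of PPAT and 7 of PAICS, and 0 of these have rows in the tables, so how their reads were assigned is not known.

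Around the 10 enzymes, 9 lists of 75 further genes of nucleotide metabolism and its regulation were examined. The lists were chosen with earlier results of these data known, and 72 of the genes were tested. Of them 17 were lower and 2 higher in shTRIM21, with a median log2 fold change of -0.08, where 11.0% of all tested genes were lower and 9.77% higher. The split turned with the scaling, to 9 lower and 5 higher with upper-quartile factors and to 0 lower and 4 higher when libraries were scaled by their totals only, so that every lower call named from these lists below was lost under the last. Many of these calls were near the threshold: of the 19, 10 were lost under at least 2 of the 17 other processing choices.

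PRPP, the sugar donor of both routes, is made by PRPP synthetases. PRPS2 had 49.1, 44.4 and 40.5 CPM in shTRIM21 and 55.4, 59.6 and 57.9 CPM in shControl, a log2 fold change of -0.37 (SE 0.07; edgeR adjusted p = 0.00202). PRPSAP2, a synthetase-associated protein gene, was at -0.23 (edgeR adjusted p = 0.0441) with its call lost under 9 of 17 choices. Thus 2 of 4 were lower, against 11.0% of all tested genes. PRPS1, at -0.15 (SE 0.06, edgeR adjusted p = 0.0961), and PRPSAP1 were uncalled.

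After inosine monophosphate the route divides. IMPDH1, of the GMP branch, was lower at 91.4 ± 1.70 CPM in shTRIM21 and 106 ± 3.66 CPM in shControl (SD, n = 3 each; log2 fold change -0.22; edgeR adjusted p = 0.00845), with its call lost under 3 of 17 choices, among them leaving out shTRIM21 replicate 2 (edgeR adjusted p = 0.0527). ADSS1, an adenylosuccinate synthetase of the AMP branch known best from muscle, was higher at 2.32, 3.19 and 2.96 CPM in shTRIM21 and 1.27, 1.14 and 1.68 CPM in shControl (log2 fold change 1.05, SE 0.23; edgeR adjusted p = 0.00499), a low level beside the ubiquitous ADSS2 at 42.6 to 50.0 CPM over all libraries. ADSS2, IMPDH2 and GMPS were uncalled.

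Of 10 nucleotide kinases, 4 were lower, against 11.0% of all tested genes: the mitochondrial adenylate kinase gene AK4 at -0.28 (SE 0.06; edgeR adjusted p = 0.00452), the nucleoside diphosphate kinase gene NME1 at -0.21 (SE 0.06; edgeR adjusted p = 0.0152), NME4 at -0.21 and AK1 at -0.22. The calls of NME1, NME4 and AK1 were lost under 3, 6 and 10 of 17 choices. The salvage list, whose enzymes recycle bases and nucleosides, had 1 lower of 10, the adenosine kinase gene ADK at -0.24 (edgeR adjusted p = 0.0274), lost under 7 of 17. HPRT1, APRT and 7 other salvage genes were uncalled.

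For deoxynucleotides, TYMS, which makes thymidylate, was at 179.9 ± 4.65 CPM in shTRIM21 and 220.1 ± 13.3 CPM in shControl (SD, n = 3 each; log2 fold change -0.29; edgeR adjusted p = 0.00178). The subunits of ribonucleotide reductase differed in sign. RRM1, the large subunit, rose to 137, 136 and 133 CPM in shTRIM21, against 114, 114 and 118 CPM in shControl (log2 fold change 0.23, SE 0.05; edgeR adjusted p = 0.00394). RRM2, the small subunit, was at -0.17 (edgeR adjusted p = 0.0359), lost or reversed under 8 of 17 choices. The other 7 genes of the list were uncalled.

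Among genes that supply one-carbon units and amino acid donors, 3 of 9 tested were lower, against 11.0% of all tested genes. MTHFD1L, of mitochondrial folate metabolism, was at 52.3 ± 1.83 CPM in shTRIM21 and 67.7 ± 2.01 CPM in shControl, and SHMT2, which splits serine in mitochondria, at 223 ± 5.98 CPM in shTRIM21 and 274 ± 10.8 CPM in shControl (SD, n = 3 each). Their log2 fold changes were -0.37 and -0.30, with edgeR adjusted p-values of 0.00037 and 0.000979. GOT1, an aspartate aminotransferase gene, was at -0.16 with its call lost or reversed under 12 of 17 choices. SHMT1 did not pass the filter, and MTHFD2 was uncalled (log2 fold change -0.17; edgeR adjusted p = 0.0564).

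In the breakdown list 2 of 11 tested were lower, against 11.0% of all tested genes. The cytosolic purine nucleotidase gene NT5C2 was at 47.6 ± 1.23 CPM in shTRIM21 and 62.3 ± 2.35 CPM in shControl (SD, n = 3 each, log2 fold change -0.39, edgeR adjusted p = 0.000288). ITPA, which clears inosine triphosphate, was at -0.22 (edgeR adjusted p = 0.0342, lost under 7 of 17). Of the 3 nucleoside transporter genes tested, 0 were called by edgeR, DESeq2 or limma-voom, and 1, SLC29A3, had an unadjusted edgeR p under 0.05.

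Of the 10 regulators, 2 were lower, ATF4 and SP1, against 11.0% of all tested genes. ATF4, which drives amino acid and serine synthesis genes, was at 412 ± 14.4 CPM in shTRIM21 and 595 ± 15.1 CPM in shControl (SD, n = 3 each; log2 fold change -0.53; edgeR adjusted p = 6.14e-06). SP1, a general activator of GC-rich promoters, was at -0.21 (edgeR adjusted p = 0.0201), lost or reversed under 6 of 17 choices. MYC overlapped between groups, at 397, 401 and 389.7 CPM in shTRIM21 and 375, 386 and 437 CPM in shControl (log2 fold change -0.01, SE 0.06, 95% interval -0.14 to 0.11; edgeR adjusted p = 0.894).

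**Figure D4:**
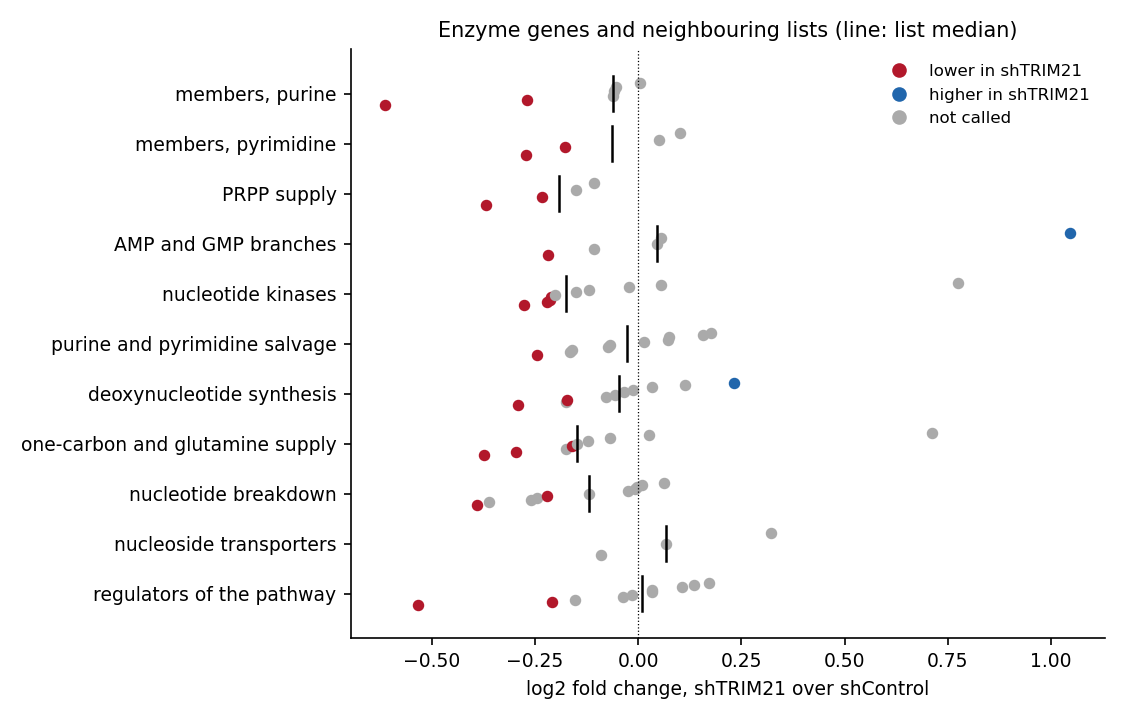
Log2 fold changes, shTRIM21 over shControl, of the enzyme genes (upper 2 rows) and of the tested genes in the 9 neighbouring lists, 1 point per gene, with the list median as a black line. Red and blue points passed the edgeR adjusted p of 0.05 as lower and higher; the blue points are ADSS1 at 1.05 and RRM1 at 0.23.

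The genes whose levels over the 6 libraries were most like those of PFAS were found by the root mean square distance between log2 CPM values, each gene centred on its own mean. They were FKBP14, a prolyl isomerase gene, at a distance of 0.042, DUSP5, a MAP kinase phosphatase gene, at 0.045, and NF2, the merlin gene, at 0.049. Their log2 fold changes were -0.61, -0.64 and -0.54, against -0.61 for PFAS. The distance depends in large part on the size of the group difference, and shared regulation was not tested. DUSP5 had 70.5, 79.2 and 75.9 CPM in shTRIM21 and 111, 114 and 128 CPM in shControl. The nearest other member was CTPS1 at 0.178, ranking 639 among the tested genes.

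**Figure D5:**
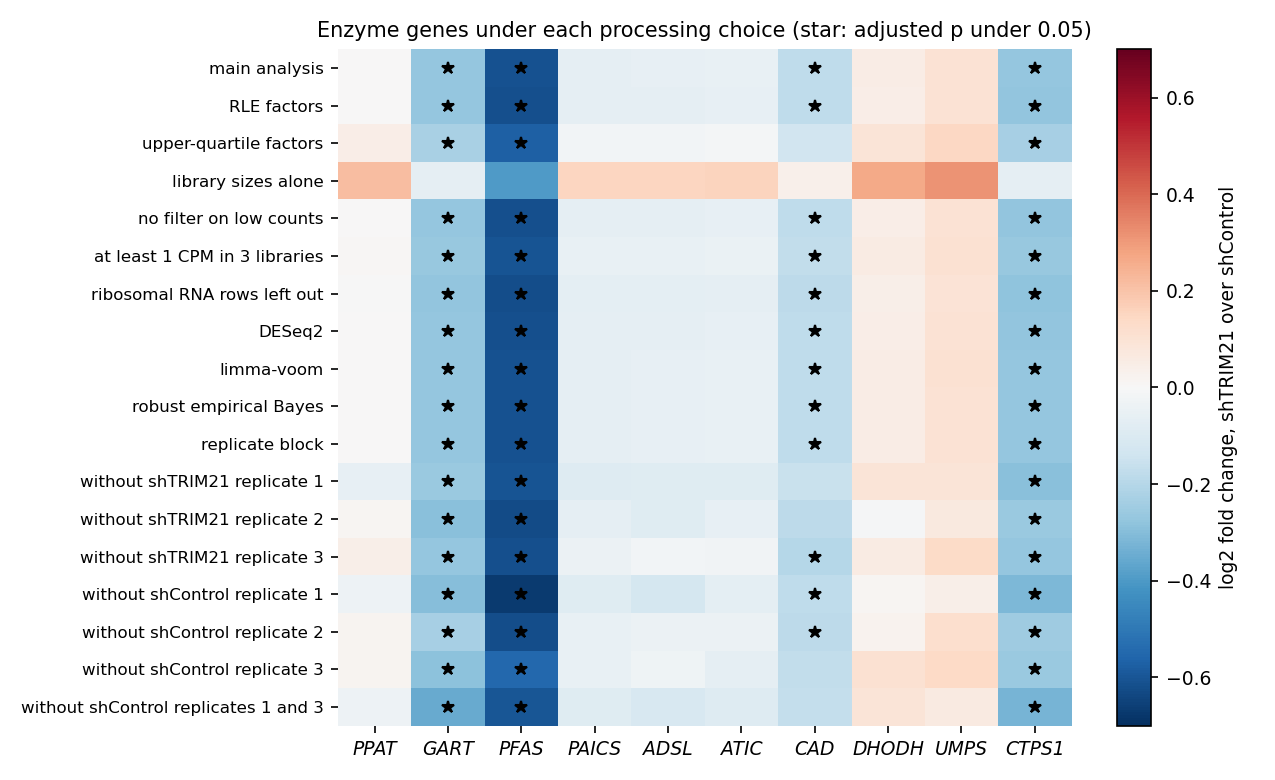
Log2 fold change of each enzyme gene, shTRIM21 over shControl, as colour, under the main analysis and 17 other processing choices (rows), with a star where the adjusted p was under 0.05. PFAS, GART and CTPS1 keep a star in every row except that of library sizes with no further factors, and CAD lacks it in 6 rows.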

How the data were processed

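Total RNA from RKO cells was measured in 6 libraries, 3 per group, with groups and replicate numbers taken from the sample titles. Each library has 1 table of raw counts by gene symbol, deposited by the authors without normalization. Per the submitters' processing notes, which give no order or purpose, TopHat2, edgeR 3.38.1, limma 3.52.2 and hg38 were used; which program and annotation gave the counts is not stated there. The analysis used R 4.3.3 and edgeR 4.0.16: genes kept by filterByExpr (minimum count 10, minimum total 15), TMM factors, quasi-likelihood F test on all 6 libraries, and Benjamini-Hochberg adjustment over the 15131 genes tested. Standard errors are the log2 fold change over the square root of F. The method was run on counts simulated from the means and dispersions of these data, with 200 genes changed. That simulation does not test the dependence on scaling. Alternatives used other scalings, filters, limma 3.58.1 (voom), DESeq2 1.42.0, robust empirical Bayes, a replicate block and omitted libraries. Members, gene lists and motifs were chosen with earlier results of these data known, so their counts are descriptions and no list was tested as a set. The text names all members, TRIM21, MYC, ATF4 and the called genes of each list, up to 5 by p-value, and the 3 genes nearest to PFAS; other list genes, markers and overlapping genes were named after their values were seen. No pair of replicates agreed within sampling noise, the chi-square per degree of freedom being at least 15.2. Ribosomal RNA rows were left in for this value, so it includes differences in ribosomal RNA share, and it was not computed without them. Rows at 0 in all libraries numbered 7790. Sequences and positions are from RefSeq (GRCh38.p14).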

Additional observations from a re-analysis of the deposited data

How the results depend on the processing

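Over 17 alternatives, 161 of 170 values of the 10 enzyme genes kept their call or lack of one; 8 lost a call, 0 gained one and 1 reversed. With ribosomal RNA rows left out and TMM factors kept, the count of enzyme genes called lower was 4. When libraries were scaled by their totals only, which include those rows, the count of enzyme genes called lower was 0. Their median log2 fold change was then 0.15 and the median of all tested genes 0.22. Relative to that shift PFAS was at -0.61, GART at -0.28, CTPS1 at -0.28 and CAD at -0.18, with no test run on these values. Subtracting the median of all genes recentres fold changes much as TMM factors do, so it is no separate check. Scaling by totals only reversed CAD (0.037), RRM2 (0.033), GOT1 (0.049) and SP1 (0.0056). It left 138 genes called lower in all, and 0 lower and 4 higher in the neighbouring lists. Upper-quartile factors gave 9 lower and 5 higher there. Leaving out 1 library at a time gave 1003 to 1398 genes lower and 841 to 1211 higher in all (1667 and 1479 with all 6), 3 to 4 enzyme genes lower, and 9 to 14 genes lower in the neighbouring lists, the fewest without shTRIM21 replicate 2. Without shControl replicates 1 and 3, whose ribosomal RNA share was highest and which were left out after seeing the data, the shControl arm was 1 library, assumed to vary like the shTRIM21 libraries that alone supplied the spread; there 1104 genes were lower and 854 higher in all, 3 enzyme genes were lower and 11 genes were lower in the neighbouring lists. The cause of these shifts was not tested. Same-numbered libraries did not deviate together (correlations -0.013, 0.0057 and -0.080); with the replicate block 1520 genes were lower and 1385 higher, the same 4 enzyme genes were called, and the calls of PRPSAP2, AK1, RRM2 and GOT1 were lost. DHODH, the enzyme gene with the fewest counts, had the widest interval among the enzymes, and the part of counting depth in this was not tested.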
